A study of Mus musculus with 6 samples.

Results

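Expression of 10 genes that control the passage of cells through the G1 phase was examined in the anterior prostate (AP) of mice with over-activated Notch1 signaling. The genes were the D-type cyclins Ccnd1, Ccnd2 and Ccnd3, the cyclin-dependent kinases (CDKs) Cdk4, Cdk6 and Cdk2, and the CDK inhibitors Cdkn1a, Cdkn1b, Cdkn2a and Cdkn2c. They were chosen by gene symbol, and all 10 were found among the 54532 rows that carried a symbol. RNA-seq of whole AP was available for 3 OEx and 3 Ctrl male mice, all 20 weeks old. The study's methods mention cleaning of prostatic secretions under RNA isolation and qPCR, and do not state it for RNA-seq. OEx mice carried Pbsn-Cre and 1 copy of the Rosa26 N1ICD allele, so that Cre switched on the Notch1 intracellular domain (N1ICD, the active form of the receptor) in prostatic epithelium. Ctrl mice carried the same Rosa26 N1ICD allele without Pbsn-Cre according to the study's methods, and the sample labels call them wild type. Pbsn-Cre acts in prostatic epithelial cells, so other cells of the gland did not carry the active allele, although whole tissue was sequenced.

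D-type cyclins are made in response to growth signals and bind Cdk4 and Cdk6. These complexes, and later cyclin E with Cdk2, phosphorylate the retinoblastoma protein RB, which then releases E2F factors that switch on the genes of DNA replication. Inhibitors of the Cip/Kip family, here Cdkn1a (p21) and Cdkn1b (p27), bind cyclin-CDK complexes, while inhibitors of the INK4 family, here Cdkn2a (p16Ink4a) and Cdkn2c (p18Ink4c), bind Cdk4 and Cdk6 directly. In the prostate, p27 is known from resting luminal cells.

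In AP of OEx mice, Ccnd1 and Ccnd2 were 4.66 and 4.15 times as high as in Ctrl mice on average, and the inhibitors Cdkn1a, Cdkn1b and Cdkn2a were higher as well. Ccnd3 and Cdk4 were lower in the deposited values, and Cdk6 and Cdk2 were higher. Values are FPKM, which are reads per kilobase of gene scaled between libraries, so they can be compared between genes of different length. Differences were tested with limma on log2(FPKM + 1) over the 12553 genes that averaged 1 FPKM or more, and all 10 genes passed this filter. Calls required an FDR (Benjamini-Hochberg) under 0.05 together with a fold change above 2. Of the 10 genes, 5 were called higher (Ccnd1, Ccnd2, Cdkn1a, Cdkn1b and Cdkn2a) and 0 were called lower, while 12.8% of all genes tested were called higher and 15.5% lower. With the FDR alone, 7 of the 10 rose and 2 fell, against 30.9% and 36.5% of all genes. The values of OEx and Ctrl mice did not overlap for 9 of the 10, as for 72.5% of all genes tested, so separation of the groups was common in these libraries. The median log2 fold change was 1.09 over the 10 genes and -0.07 over all genes.

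Several facts of the libraries touch these values. The recovered depth was 14762182 to 16998856 reads on annotated genes in OEx mice and 17233772 to 18650962 in Ctrl mice. Of all reads, 14.3% to 22.02% fell on the single most abundant gene in Ctrl mice, against at most 1.12% in OEx mice. The deposited FPKM values already carry a scaling between mice that did more than offset the most abundant genes. With totals that left out the 20 most abundant genes, the median log2 fold change over all genes was 0.21, against -0.07 as deposited. When the values were scaled to library totals instead, the median over all genes moved on the log2 scale from -0.07 to 0.56, and the share called higher became 30.6% and the share called lower 4.22%. With the FDR alone these shares became 57.4% and 13.7%. The 10 genes then counted 7 called higher and 0 lower, or 8 higher and 0 lower with the FDR alone. In both groups replicate 3 stood apart from the other mice, which had a Pearson r of 0.991 over genes in each group. Replicates 1 and 2 differed by more than counting noise, with a chi-square per degree of freedom of 4.31 in OEx and 3.08 in Ctrl mice. Pairs with replicate 3 were much further apart, at 62.3 and 65.7 in OEx and 100 and 103 in Ctrl mice. The labels list replicates 1 and 2 as separate mice, and whether they are independent was not tested. When replicates 1 and 2 of each group were averaged and counted as 1 mouse, 3 of the 10 genes were still called (Ccnd1, Ccnd2 and Cdkn1b) and 6 passed the FDR. Without OEx replicate 3, 5 were called, and without Ctrl replicate 3, 4 were called, all but Cdkn2a. Ctrl replicate 3 also held reads of seminal vesicle genes, with a summed FPKM of 16128 over 8 markers, against at most 4.36 in any other mouse. Whether reads were counted by strand is not given in the sources used here, and 7 of the 10 genes overlap a gene on the other strand (all but Cdkn1b, Cdkn2a and Cdkn2c), so reads of the overlapping parts cannot be told apart.

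The labelled genotype was visible in the data. Notch1 was at 41.9, 47.6 and 78.9 FPKM in OEx mice and at 5.18, 5.55 and 3.34 FPKM in Ctrl mice. Hes1, a direct target of Notch signaling, was at 243, 243 and 205 FPKM against 48.8, 47.7 and 50.04 FPKM. Markers of luminal epithelium (Epcam, Krt8, Krt18 and Krt19) summed to 1499 to 1932 FPKM in OEx and 1907 to 2186 FPKM in Ctrl mice. Of these, Krt18 was called lower (-1.49), Krt8 fell (-0.43) and Krt19 rose (0.33) with the FDR alone, and Epcam did not pass (0.45). With library totals Krt18 was at -0.70, Krt8 at 0.35, Krt19 at 1.12 and Epcam at 1.23 (FDR 9.96e-04). The 4 basal markers (Krt5, Krt14, Krt15 and Trp63) summed to 6.79 to 15.9 FPKM in OEx and 212 to 249 FPKM in Ctrl mice, and the 4 smooth muscle markers (Acta2, Myh11, Des and Cnn1) to 349 to 415 FPKM against 1037 to 2232 FPKM. All 8 of these basal and muscle markers were called lower, but with library totals Myh11 (-0.40, FDR 0.284) and Des (-0.40, FDR 0.489) did not pass the FDR. The 4 endothelial markers (Pecam1, Cdh5, Kdr and Emcn) summed to 5.68 to 6.68 FPKM in OEx and 16.7 to 21.1 FPKM in Ctrl mice. Of these, 1 was called lower (Emcn) and 3 were lower by the FDR alone. With library totals Emcn was at -1.52, and Pecam1 (-0.36, FDR 0.150) and Cdh5 (-0.27, FDR 0.126) did not pass the FDR. Fewer cells of a type and less RNA per cell cannot be told apart in whole tissue, and the part of this difference in the results below was not tested.

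**Figure D1:**
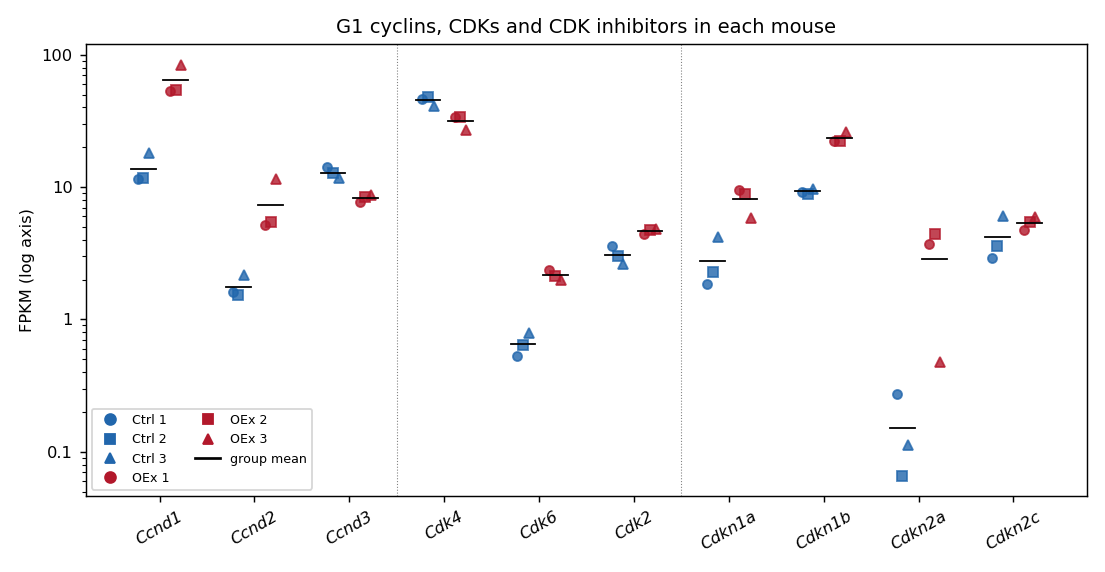
FPKM (log axis) of the 10 genes in each of the 3 Ctrl and 3 OEx mice, with a symbol per replicate number and a bar at each group mean. The groups are apart for every gene but Cdkn2c, and OEx 3 lies far below OEx 1 and OEx 2 for Cdkn2a.

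The starts of the D-type cyclins are shown because each carries the L-x-C-x-E motif by which D-type cyclins bind RB, and because the 3 genes that share this function did not move together. The bases are the first 36 of each coding sequence in GRCm38 on the strand of the gene, with the 5 codons of the motif in capitals, at chr7:144939658-144939693 (minus strand) for Ccnd1, chr6:127150738-127150773 (minus strand) for Ccnd2 and chr17:47593655-47593690 (plus strand) for Ccnd3.
Ccnd1: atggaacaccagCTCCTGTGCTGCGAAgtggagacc
Ccnd2: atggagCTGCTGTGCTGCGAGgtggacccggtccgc
Ccnd3: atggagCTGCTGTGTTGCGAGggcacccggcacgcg
The motif begins at codon 5 in Ccnd1 and at codon 3 in Ccnd2 and Ccnd3. Coding lengths were 885, 867 and 876 bases.

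Ccnd1, the cyclin most often linked to growth factor signals, lies on chromosome 7 (GRCm38 144929931 to 144939925). It was at 53.2, 54.6 and 84.4 FPKM in OEx mice and at 11.6, 11.7 and 18.0 FPKM in Ctrl mice. The lowest OEx mouse was well above the highest Ctrl mouse, and replicate 3 was the highest of its group on both sides. The means were 64.1 ± 17.6 and 13.8 ± 3.71 FPKM (SD, n = 3), and the log2 fold change was 2.14 with an SE of 0.237 (limma FDR 3.12e-04). Recovered reads were 4999 to 7173 in OEx and 682 to 1291 in Ctrl mice, so counting noise was small. The log2 fold change of Ccnd1 stayed between 1.92 and 2.88 under all alternatives tried.

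Ccnd2 was the least abundant D-type cyclin in Ctrl mice, at 1.61, 1.54 and 2.16 FPKM. In OEx mice it was at 5.19, 5.41 and 11.4 FPKM. All OEx mice were above all Ctrl mice, and OEx replicate 3 stood above the other OEx mice. The log2 fold change was 1.52 with an SE of 0.279 (limma FDR 0.00287), and it was 1.19 without OEx replicate 3.

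Ccnd3 went the other way, with 7.78, 8.35 and 8.67 FPKM in OEx mice and 14.1, 12.7 and 11.7 FPKM in Ctrl mice. The ranges did not overlap, and the mice of each group were close to each other. On the deposited scale Ccnd3 fell, with a log2 fold change of -0.58 (SE 0.0965, limma FDR 0.00190), which is past the FDR but not the fold criterion. With library totals the value was 0.14 and no longer past the FDR (0.134), so the direction depends on the scaling. Measured from the median gene, the difference was -0.50 on the deposited scale and -0.43 with library totals.

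Ratios of genes within a mouse do not depend on the scaling between mice. The ratio of Ccnd3 to Ccnd1 was 1.22, 1.09 and 0.648 in Ctrl mice and 0.146, 0.153 and 0.103 in OEx mice. Ctrl mice thus held similar amounts of these transcripts, and OEx mice held several times more Ccnd1 than Ccnd3. The difference was 7.21-fold and the groups did not overlap (exact permutation p = 0.1, two-sided, the smallest value that 3 against 3 mice allow, and 0.16 after adjustment over the 8 ratios computed). The ratio of Ccnd2 to Ccnd3 was 0.667, 0.648 and 1.32 in OEx mice against 0.114, 0.121 and 0.185 in Ctrl mice, a 6.06-fold difference with the same exact p. Ccnd2 and Ccnd1 kept a more similar ratio, with overlapping groups (exact permutation p = 0.3).

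As a share of the summed FPKM of the D-type cyclins, Ccnd1 was 80.4% ± 0.449 (SD, n = 3) in OEx and 48.0% ± 7.54 in Ctrl mice. Ccnd3 was 10.8% ± 2.14 in OEx and 45.8% ± 8.03 in Ctrl mice, and Ccnd2 was 8.89% ± 1.76 and 6.20% ± 0.495. The sum of the D-type cyclins was 66.2, 68.4 and 104 FPKM in OEx mice and 27.3, 25.9 and 31.9 FPKM in Ctrl mice. The difference in the sum was thus mostly in Ccnd1, and Ccnd3 went from a share near that of Ccnd1 in Ctrl mice to one near that of Ccnd2 in OEx mice.

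**Figure D2:**
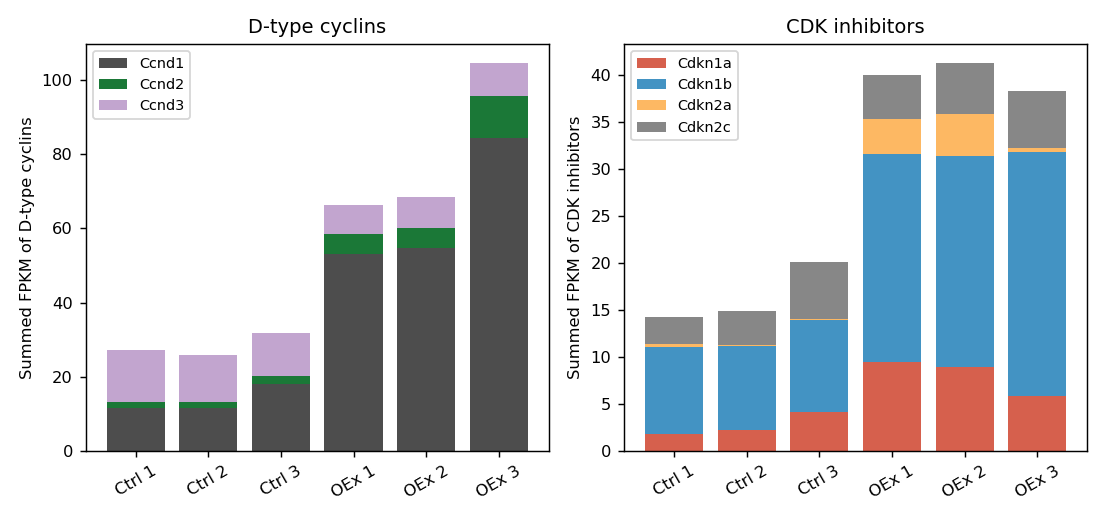
Stacked bars of FPKM for the D-type cyclins (left) and the CDK inhibitors (right) in each mouse. Ccnd1 takes 80.4% of the D-type cyclin sum in OEx and 48.0% in Ctrl mice, while Cdkn1b takes 59.2% and 57.8% of the inhibitor sum.

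Among the kinases, Cdk4, the main partner of D-type cyclins, was the most abundant in every mouse. It was at 33.9, 34.1 and 26.9 FPKM in OEx mice and at 46.6, 48.4 and 41.2 FPKM in Ctrl mice. The highest OEx mouse was below the lowest Ctrl mouse, and replicate 3 was the lowest of its group on both sides. On the deposited scale the log2 fold change was -0.51 (SE 0.121, limma FDR 0.00890). With library totals it was 0.25 (FDR 0.143), so this direction too depends on the scaling, and measured from the median gene it was -0.44 and -0.31. With replicates 1 and 2 averaged, the FDR of Cdk4 was 0.0623.

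Cdk6, the second kinase of D-type cyclins, was scarce in Ctrl mice at 0.526, 0.646 and 0.790 FPKM. OEx mice held 2.37, 2.12 and 1.99 FPKM, with recovered reads of 503 to 678 against 92 to 168. The groups were clearly apart and the ratio of the means was 3.30. The log2 fold change was 0.94 (SE 0.121, limma FDR 6.06e-04), just under the fold criterion because the pseudocount of 1 FPKM shrinks differences of low genes, and 1.60 with a pseudocount of 0.1 FPKM, when Cdk6 was called as well.

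Cdk2, the partner of cyclin E, was at 4.44, 4.72 and 4.801 FPKM in OEx mice and at 3.56, 3.03 and 2.62 FPKM in Ctrl mice. The groups did not overlap. Its log2 fold change of 0.48 (SE 0.111, limma FDR 0.00810) was past the FDR but not the fold criterion.

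The balance of the kinases was compared within each mouse as well. The ratio of Cdk6 to Cdk4 was 0.0698, 0.0621 and 0.0740 in OEx mice and 0.0113, 0.0134 and 0.0192 in Ctrl mice, 4.81-fold higher in OEx mice. The ratio of Cdk2 to Cdk4 was 0.131, 0.138 and 0.178 against 0.0764, 0.0626 and 0.0638, 2.20-fold higher. Neither ratio overlapped between the groups (exact permutation p = 0.1 for each, the smallest possible). Cdk4 nevertheless made up 82.1% ± 1.99 of the summed FPKM of the 3 kinases in OEx and 92.4% ± 0.503 in Ctrl mice (SD, n = 3), and Cdk6 only 5.63% and 1.35%. The summed D-type cyclins over summed Cdk4 and Cdk6 were 1.82, 1.89 and 3.61 in OEx mice and 0.580, 0.528 and 0.761 in Ctrl mice. The cyclins thus outnumbered these kinases, per length of transcript, in each OEx mouse and in no Ctrl mouse (3.77-fold, exact permutation p = 0.1).

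**Figure D3:**
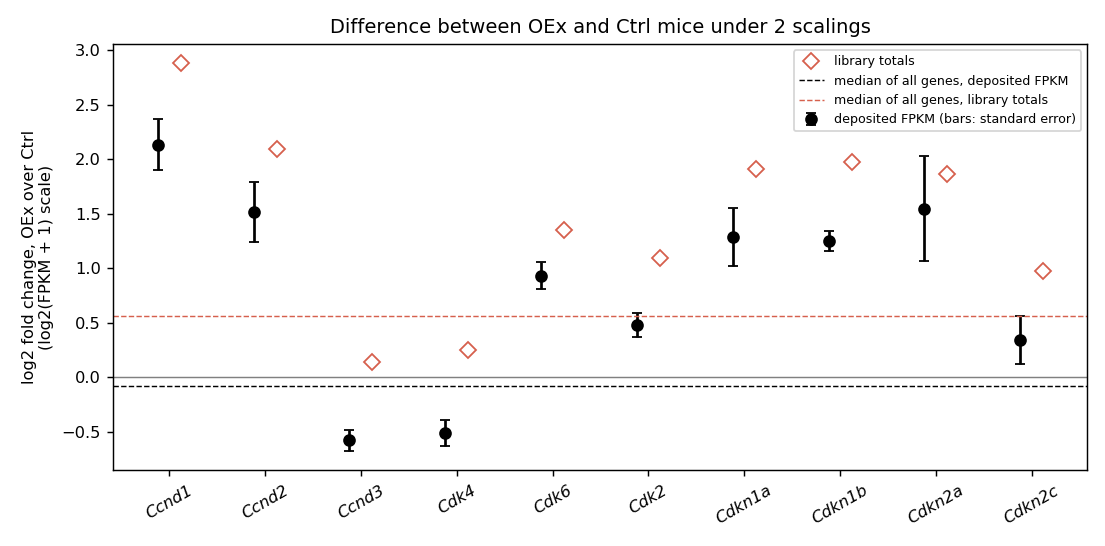
Log2 fold change of each gene between 3 OEx and 3 Ctrl mice on the log2(FPKM + 1) scale, for the deposited FPKM with standard errors (filled) and for library totals (open), with the median of all genes under each scaling as a dashed line. Ccnd3 and Cdk4 lie below 0 at -0.58 and -0.51 with the deposited values and above 0 at 0.14 and 0.25 with library totals, and below the median of all genes with both.

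Of the inhibitors, Cdkn1b (p27) was the most abundant in every mouse. It was at 22.1, 22.5 and 26.0 FPKM in OEx mice and at 9.22, 8.94 and 9.74 FPKM in Ctrl mice. The mice of each group were close together and the groups far apart. The means were 23.5 ± 2.11 and 9.30 ± 0.407 FPKM (SD, n = 3), with a log2 fold change of 1.25 (SE 0.0920, limma FDR 7.11e-05), the smallest SE among the 10 genes. No other annotated gene overlaps Cdkn1b, and its call held under every alternative tried.

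Cdkn1a (p21), the inhibitor that p53 induces after DNA damage, was at 9.45, 8.94 and 5.85 FPKM in OEx mice and at 1.84, 2.28 and 4.19 FPKM in Ctrl mice. OEx replicate 3 was the lowest OEx mouse and Ctrl replicate 3 the highest Ctrl mouse, so the groups came closest there without overlap. The log2 fold change was 1.29 (SE 0.265, limma FDR 0.00470), and it was 1.48 without OEx replicate 3 and 1.55 without Ctrl replicate 3. With replicates 1 and 2 averaged it was 1.07 with an FDR of 0.0501, which is not past the threshold. The ratio of Cdkn1a to Cdkn1b overlapped between the groups (exact permutation p = 0.7).

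Cdkn2a encodes unrelated proteins from different first exons, p16Ink4a, which binds Cdk4 and Cdk6, and p19Arf, which stabilises p53. The starts of both reading frames are shown because a gene-level FPKM cannot separate them. The start codons are in capitals, all on the minus strand of GRCm38, at chr4:89294494-89294523 for the upstream start (p19Arf), chr4:89282082-89282111 for the downstream start (p16Ink4a) and chr4:89276956-89276985 for the first coding bases that both transcripts share.
Upstream start: ATGggtcgcaggttcttggtcactgtgagg
Downstream start: ATGgagtccgctgcagacagactggccagg
Shared: gtgatgatgatgggcaacgttcacgtagca
The coding sequences are 507 and 504 bases long and share 317 bases, read in frames that are offset by 1 base.

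Cdkn2a was at 3.72, 4.403 and 0.473 FPKM in OEx mice and at 0.273, 0.0659 and 0.112 FPKM in Ctrl mice. OEx replicates 1 and 2 were high, and OEx replicate 3 was close to the Ctrl mice, although still above all of them. The reads behind these values were 87, 118 and 10 in OEx and 4, 1 and 2 in Ctrl mice. Summed over mice, 215 against 7 reads gave a ratio of 20.5 (95% interval 9.79 to 51.6, exact, counting error only), and OEx replicate 3 alone gave 3.22 (1.11 to 9.96). The log2 fold change was 1.55 (SE 0.481, limma FDR 0.0262). This call depended on which mice were included: the FDR was 1.71e-04 without OEx replicate 3 (log2 fold change 2.14) and lay between 0.0554 and 0.0815 when any other mouse was left out. It was 0.0550 with limma-voom, 0.0560 with no filter on low values and 0.140 with replicates 1 and 2 averaged.

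Cdkn2c (p18Ink4c) was at 4.72, 5.42 and 5.98 FPKM in OEx mice and at 2.92, 3.57 and 6.03 FPKM in Ctrl mice. It was the 1 gene of the 10 whose groups overlapped, because Ctrl replicate 3 was above every OEx mouse. The log2 fold change was 0.34 (SE 0.221, limma FDR 0.208). Without Ctrl replicate 3, the mouse with reads of seminal vesicle genes, it was 0.59 with an FDR of 0.00898, and with library totals it was 0.98 with an FDR of 0.00999.

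The 4 inhibitors summed to 39.8 ± 1.503 FPKM in OEx and 16.4 ± 3.20 FPKM in Ctrl mice (SD, n = 3). Cdkn1b took 59.2% ± 7.48 of this sum in OEx and 57.8% ± 8.32 in Ctrl mice, and Cdkn2a took 7.07% ± 5.10 and 0.972% ± 0.818. The summed D-type cyclins over summed Cdkn1a and Cdkn1b were 2.10, 2.18 and 3.28 in OEx mice and 2.47, 2.31 and 2.29 in Ctrl mice. Here the groups overlapped, with a 1.05-fold difference (exact permutation p = 1), so no difference in this ratio was detectable with 3 mice per group. Of the 8 ratios computed, 5 did not overlap between the groups. Single genes did not overlap in 72.5% of all tested, and no such share was computed for ratios of other genes. The count is therefore not read as particular to these genes.

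Markers of fibroblasts and immune cells also varied between the mice of a group. Fibroblast markers (Col1a1, Col1a2, Dcn and Pdgfra) summed to 149, 154 and 19.9 FPKM in OEx mice and to 44.5, 43.3 and 76.6 FPKM in Ctrl mice. The 6 immune markers summed to 19.2, 18.8 and 4.36 FPKM in OEx mice and to 4.35, 4.66 and 10.3 FPKM in Ctrl mice. OEx replicates 1 and 2, which held most Cdkn2a and Cdkn1a, were thus also the highest in both sums, and Ctrl replicate 3, which held most Cdkn1a and Cdkn2c of the Ctrl mice, was the highest Ctrl mouse. Other values went the other way: Cdkn2c was highest among OEx mice in replicate 3, which had the lowest sums, and Cdkn2a was highest among Ctrl mice in replicate 1 and not in replicate 3. None of the 4 fibroblast markers, and none of the 2 immune markers that passed the filter, was called with limma (0 of 6). The part of these cells in the levels of Cdkn1a, Cdkn2a and Cdkn2c was not tested.

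**Figure D4:**
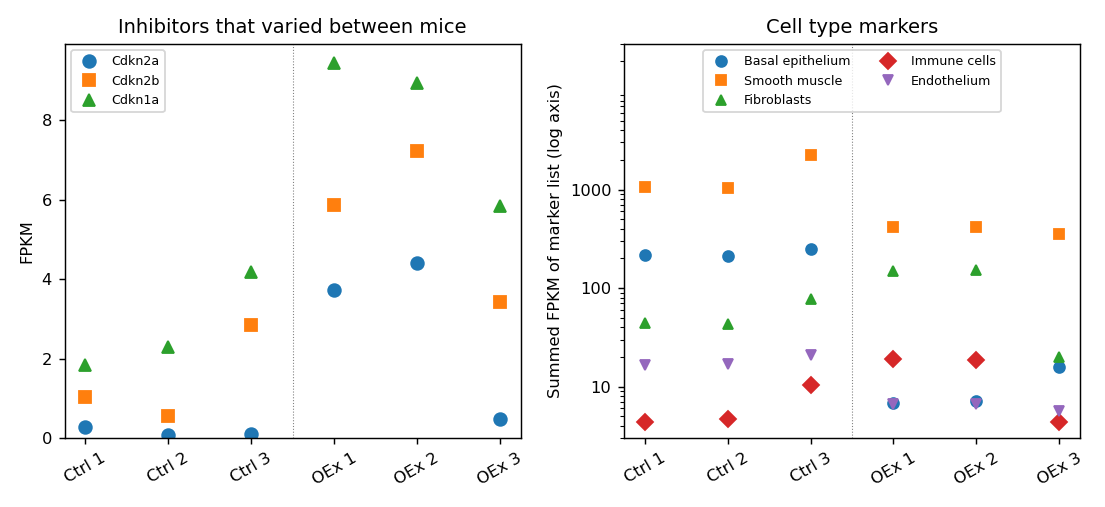
Left, FPKM of Cdkn2a, Cdkn2b and Cdkn1a in each mouse, and right, the summed FPKM (log axis) of marker lists for 5 other cell types. OEx 3 is the lowest OEx mouse for the inhibitors at left and for fibroblasts (19.9 FPKM) and immune cells (4.36 FPKM) at right.

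The order of the levels differed between the groups. In Ctrl mice, Cdk4 was highest, followed by Ccnd1 and Ccnd3, whose ranges overlapped, and by Cdkn1b. Cdkn2c, Cdk2, Cdkn1a and Ccnd2 followed, each overlapping the next, and then Cdk6 and Cdkn2a. In OEx mice, Ccnd1 was highest, followed by Cdk4 and Cdkn1b, with no overlap between these. Ccnd3, Cdkn1a, Ccnd2, Cdkn2c and Cdk2 followed, each overlapping the next, and Cdkn2a and Cdk6 were lowest and overlapped each other.

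Genes around the G1 machinery were described by 8 lists of 76 genes, of which 67 passed the filter. In all, 8 of the 67 were called higher and 6 lower, against 12.8% and 15.5% of all genes tested. On the deposited scale, calls were thus no more common here than elsewhere. With the FDR alone 33 rose and 15 fell, against 30.9% and 36.5% of all genes, and the counts of each list below are to be read against these shares. With library totals these counts were 33 and 3 called, against 30.6% and 4.22% of all genes. The FDR alone then gave 52 and 6, against 57.4% and 13.7%. Higher genes were thus more common in the lists than among all genes under that scaling. Among the other CDK inhibitors, Cdkn2b (p15Ink4b), which lies upstream of Cdkn2a on the same strand with its nearest base 11646 bases away, was the 1 of 3 that was called. It was at 5.88, 7.24 and 3.43 FPKM in OEx mice and at 1.04, 0.556 and 2.84 FPKM in Ctrl mice, with a log2 fold change of 1.46 (limma FDR 0.0127). Its pattern over mice was like that of Cdkn1a, with OEx replicate 3 low and Ctrl replicate 3 high, and its FDR was 0.0932 with replicates 1 and 2 averaged. Cdkn1c (p57) and Cdkn2d (p19Ink4d) had log2 fold changes of -0.33 and -0.30 and did not pass the FDR (0.0913 and 0.094).

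Proliferation readouts were mostly higher. Of 9 tested, 2 were called higher and 6 rose with the FDR alone, with none lower, and their median log2 fold change was 0.65. Mki67, the gene of the Ki67 antigen of cycling cells, was at 2.82, 2.71 and 2.22 FPKM in OEx mice and at 0.207, 0.131 and 0.307 FPKM in Ctrl mice. All OEx mice were several times above the Ctrl mice, and the log2 fold change was 1.56 (limma FDR 1.09e-04). The MCM genes encode the helicase that unwinds DNA for replication. Mcm6 was called with a log2 fold change of 1.26, and Mcm4 (0.98) and Mcm7 (0.55) rose with the FDR alone. Pcna (0.23, FDR 0.140) and Mcm2 (0.36, FDR 0.0839) did not pass.

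Other cyclins, CDKs and activators of the G1/S transition moved in both directions. Of 7 tested, 0 were called higher and 1 lower, and 2 rose and 3 fell with the FDR alone, with a median log2 fold change of -0.13. Ccna2, the cyclin A gene of S phase, was at 1.94, 1.97 and 1.25 FPKM in OEx mice and at 0.607, 0.397 and 0.548 FPKM in Ctrl mice, and rose with the FDR alone (0.83, FDR 0.00316). Cdk1, the mitotic kinase, was at 1.70, 1.56 and 1.01 FPKM against 0.923, 0.830 and 0.907 FPKM and did not pass (0.35, FDR 0.0735), although its groups did not overlap. Ccna2 and Cdk1 were chosen after their values were seen. Ccne1 and Ccne2, the cyclin E genes, were under the filter. Ccne1 was at 0.490, 0.657 and 0.416 FPKM in OEx mice and at 1.14, 1.31 and 0.717 FPKM in Ctrl mice. Ccne2 was at 0.588, 0.576 and 0.777 FPKM against 0.297, 0.199 and 0.169 FPKM. The levels of these E-type cyclins thus lay in opposite order between the groups, without overlap and without a test, and these genes too were chosen in that way. Cdc25a, the phosphatase that activates Cdk2, was called lower (log2 fold change -1.08, limma FDR 1.03e-04), and at -0.46 with library totals it was short of the fold criterion. Cdc37, the chaperone partner that loads Cdk4, fell with the FDR alone (-0.84), and with library totals its value was -0.08. Of the CDK-activating kinase, Ccnh rose (0.48, FDR 0.0125), Mnat1 fell (-0.40, FDR 0.045) and Cdk7 did not pass (-0.13). With library totals Mnat1 was at 0.22 and Cdk7 at 0.55, so these directions depend on the scaling.

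In the RB, E2F and DP list, 0 of 10 genes tested were called higher and 1 lower, and 5 rose and 1 fell with the FDR alone. The gene called lower was E2f2, an activating E2F, at 0.811, 1.07 and 1.26 FPKM in OEx mice and at 4.11, 3.42 and 2.56 FPKM in Ctrl mice (-1.08 on the log2 scale, limma FDR 0.00130). Its fold change was just short of the criterion without OEx replicate 1 (-0.998), without Ctrl replicate 1 (-0.96) and with replicates 1 and 2 averaged (-0.98), and with library totals it was -0.58. E2f5 (0.35) and Tfdp1 (0.38), the partner of E2F proteins on DNA, rose with the FDR alone, while Rbl2 (0.20) and E2f4 (-0.13) did not pass. The others that rose with the FDR alone were Rb1 (0.79), Rbl1 (0.56) and E2f3 (0.63), chosen after their values were seen.

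The list of genes for the turnover of cyclins and inhibitors had 1 gene called lower and 0 higher among 11 tested, with 5 higher and 4 lower by the FDR alone. Cks1b, the cofactor with which the SCF ligase recognises p27, was at 12.999, 10.4 and 13.8 FPKM in OEx mice and at 52.0, 54.7 and 49.0 FPKM in Ctrl mice. Its log2 fold change was -1.99 (limma FDR 3.84e-05) and was -1.24 with library totals, so it was lower under both scalings. Skp2, the subunit that works with it, was under the filter at 0.318, 0.350 and 0.506 FPKM in OEx mice and at 0.173, 0.196 and 0.175 FPKM in Ctrl mice, and was chosen after its values were seen. Fbxo31, which targets cyclin D1, rose with the FDR alone (0.99). Rbx1 (-0.91), Ddb1 (-0.45) and Skp1a (-0.34), shared parts of cullin ligases, fell with the FDR alone, and with library totals they were at -0.17, 0.33 and 0.44.

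Among p53 and its targets, 2 of 13 were called higher and 1 lower, with 8 higher and 3 lower by the FDR alone. Trp53 itself was at 19.0, 18.9 and 17.4 FPKM in OEx mice and at 12.6, 12.9 and 10.8 FPKM in Ctrl mice (0.57 on the log2 scale, limma FDR 0.00185). Ccng1 (1.29) and Trp53inp1 (1.19) were called higher, in the same direction as Cdkn1a. Gdf15, a stress-induced secreted factor, had the largest difference of the 8 lists and was lower, at 0.785, 0.803 and 0.598 FPKM in OEx mice and at 33.3, 37.3 and 53.4 FPKM in Ctrl mice (-4.59). Sesn2 (-0.997) and Phlda3 (-0.95) fell with the FDR alone, and Bax (-0.18) did not pass. Eda2r (0.99), Aen (0.94), Sesn1 (0.55), Mdm2 (0.49) and Zmat3 (0.35) rose with the FDR alone, and were chosen after their values were seen. Known p53 targets thus moved in both directions on the deposited scale, more of them up than down. With library totals Sesn2 was at -0.29, and Phlda3 at -0.20 did not pass the FDR (0.634). By the FDR alone, 10 genes of this list were then higher and 2 lower. Genes of the 8 lists named here without passing the FDR and with a value below 0 were above 0 with library totals (Cdk7, Cdkn1c, Cdkn2d, E2f4, Bax, Jun and Tbx3). Of these, Cdk7, E2f4 (0.62), Bax (0.58) and Tbx3 (0.57) then passed the FDR as higher. So did the named genes above 0 that had not passed: Myc (1.19), Pcna (0.98), Mcm2 (0.94), Rbl2 (0.87) and Cdk1 (0.76). Under that scaling 57.4% of all genes were higher by the FDR alone.

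Upstream of the D-type cyclins, 1 of 6 genes tested was called higher and 1 lower. Egfr, a receptor of epidermal growth factors, was at 7.21, 6.75 and 8.52 FPKM in OEx mice and at 2.18, 1.98 and 2.15 FPKM in Ctrl mice (1.45 on the log2 scale, limma FDR 7.16e-05). Fos, an immediate early gene, was at 4.37, 3.997 and 5.91 FPKM against 10.5, 11.0 and 50.9 FPKM (-1.75, FDR 0.0316). Ctrl replicate 3 stood far above the other mice for Fos, and the FDR was between 0.0531 and 0.0841 when any OEx mouse was left out. Without Ctrl replicate 3 the log2 fold change was -1.04 (limma FDR 0.00228), and with library totals it was -1.07 and not past the FDR (0.163). Ctnnb1 (0.47) and Stat3 (0.59) rose with the FDR alone, and Myc (0.44, FDR 0.121) and Jun (-0.41, FDR 0.182) did not pass.

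Of the repressors and activators of the inhibitors, 2 of 8 were called higher and 1 lower. Hes1, a repressor of Cdkn1b and Cdkn1c in other tissues, was higher (2.21), as its level above shows, and Cdkn1b was higher too. Whether any gene of this list acts on the inhibitors in these mice was not tested. Ezh2, a Polycomb methyltransferase that silences the Cdkn2a locus in many cells, was at 3.24, 2.93 and 2.80 FPKM in OEx mice and at 0.706, 0.879 and 1.01 FPKM in Ctrl mice (1.10, limma FDR 2.43e-04). Bmi1, another Polycomb protein with this role, rose with the FDR alone (0.63). Tbx2, a repressor of Cdkn1a and Cdkn2a, was at 1.27, 1.62 and 1.299 FPKM in OEx mice and at 31.3, 28.9 and 32.4 FPKM in Ctrl mice (-3.73, FDR 1.42e-05). Its relative Tbx3 did not pass (-0.20, FDR 0.338). Klf4 (-0.61) and Foxo3 (-0.28), activators of Cip/Kip genes, fell with the FDR alone, and with library totals they were at 0.09 and 0.42.

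**Figure D5:**
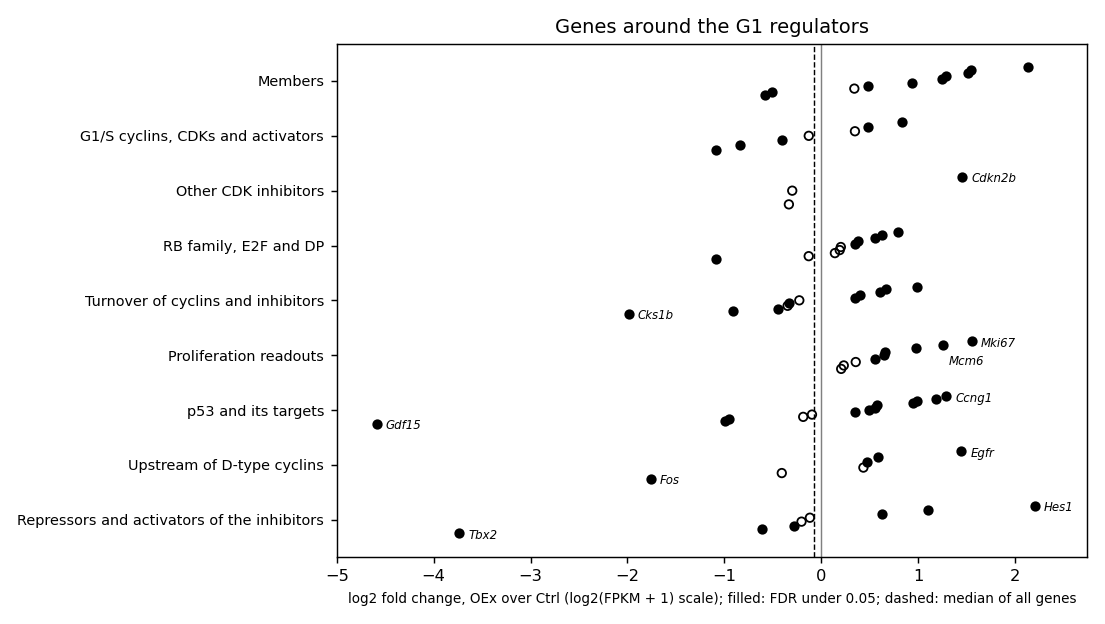
Log2 fold change (log2(FPKM + 1) scale) of the 10 genes and of each tested gene of the 8 lists, filled where the FDR was under 0.05, with the median of all genes as a dashed line. The lists spread on both sides of 0, from Gdf15 at -4.59 to Hes1 at 2.21, and the proliferation readouts all lie above 0.

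Promoters were searched for TGGGAA, the core letters of sites of RBPJ (the factor that holds N1ICD on DNA), and for TTTCCCGC and TTTGGCGC, forms of E2F sites, on both strands, from 250 bases before to 50 bases after the start. RefSeq (GRCm38.p6) gave 12 promoters for 8 of the 10 genes and none for Ccnd1 and Ccnd2. TGGGAA was found in 3 of the 12, against 25.6% of all 32851 promoters, TTTCCCGC in 2 of the 12, against 1.07%, and TTTGGCGC in 0 of the 12, against 0.514%. The windows are shown in the direction of the gene with the match in capitals, and capitals read as the reverse complement where the match is on the other strand. They lie at chr4:89294709-89294738 and chr4:89294700-89294729 for Cdkn2a (gene on the minus strand), chr10:127063382-127063411 for Cdk4 (plus), chr17:29093640-29093669 for Cdkn1a (plus) and chr10:128705173-128705202 for Cdk2 (minus).
Cdkn2a, TGGGAA at -107: cctgggcgcctcTGGGAAgctttcccgcgc
Cdkn2a, TTTCCCGC at -99: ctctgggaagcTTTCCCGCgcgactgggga
Cdk4, TGGGAA at -141, other strand: ccacacctctgcTTCCCAgcgcaaagtcaa
Cdkn1a, TGGGAA at -117, other strand: cgcgggcttagaTTCCCAgaggggagggcg
Cdk2, TTTCCCGC at -140, other strand: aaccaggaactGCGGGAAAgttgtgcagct
The Cdkn2a matches lie side by side without sharing a base in the promoter of the upstream start. TGGGAA was about as common here as among all promoters. Genes with TGGGAA were called higher (Cdkn1a and Cdkn2a) or fell with the FDR alone on the deposited scale (Cdk4, at 0.25 with library totals). Searched genes without it also moved in both directions: Cdkn1b was called higher, and Ccnd3 fell with the FDR alone on the deposited scale. Genes with TTTCCCGC were called higher (Cdkn2a) or rose with the FDR alone (Cdk2). A match of letters is a description and not a site of binding.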

How the data were processed

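Total RNA of whole AP was sequenced by the authors (TruSeq kit), 1 library per mouse. The authors deposited 1 table of FPKM values per mouse, with 55076 rows by gene symbol, of which 544 had no symbol and were left out. The submitters' processing notes name CASAVA, HISAT2 2.0.5, featureCounts 1.5.0-p3 and StringTie 1.3.3b, and the genome build and the library size behind the FPKM are not given in the sources used here. Reads were recovered from the FPKM with exon lengths of the GENCODE annotation of GRCm38, matched by symbol for 53636 rows. Between 96.9% and 97.5% of values under 1000 reads were whole within 0.05 reads. A floor of 3 reads was 0.161 to 0.203 CPM in these libraries and covers counting error only, because molecular identifiers are not mentioned.

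Groups came from the labels, which list 6 separate mice. A model with a group term alone was fitted with limma 3.58.1 (R 4.3.3) to log2(FPKM + 1) of the 12553 rows that averaged 1 FPKM or more, and eBayes used an intensity trend. The thresholds (FDR under 0.05, fold change above 2) are those of the study's methods. Ratios were tested on the log2 scale over all 20 ways to assign 3 of 6 mice, two-sided. The limma fit was tested on simulated counts with known changes, while the recovery of reads, the ratios and the other scalings were not simulated. Alternatives were other scalings (library totals, the same without the 20 most abundant genes, upper quartile), a pseudocount of 0.1, no filter, at least 10 reads in every mouse, limma-voom on recovered reads, each mouse left out, a replicate block, and replicates 1 and 2 averaged. Count models were not run, since the values are FPKM. Python 3.11.15 was used for tables (pandas 2.3.3, numpy 2.4.6), exact tests (scipy 1.17.1) and plots (matplotlib 3.10.9).

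The 10 genes, the 8 lists and the marker lists were chosen with earlier results of these data known. The result of 1 marker list is not reported here. Named genes are the 10 genes, Notch1 and Hes1, and from each list the called genes and up to 4 others with the highest mean FPKM. Any other gene was chosen after its values were seen.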

Additional observations from a re-analysis of the deposited data

How the results depend on the processing

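Ccnd1, Ccnd2, Cdk6, Cdk2 and Cdkn1b kept their direction and stayed past the FDR in all 15 alternatives, with log2 fold changes of 1.92 to 2.88, 1.19 to 2.10, 0.85 to 1.72, 0.36 to 1.10 and 1.10 to 1.97. Cdkn1a did so except with replicates 1 and 2 averaged (FDR 0.0501). With library totals, Ccnd3 reversed from -0.58 to 0.14 and Cdk4 from -0.51 to 0.25. By construction, this scaling moves all genes up in OEx relative to Ctrl mice. The move is smaller for low genes because of the pseudocount. Cdk4 was also short of the FDR with library totals without the 20 most abundant genes (-0.18, FDR 0.297), a setting chosen after seeing the data. In that setting Ccnd3 was at -0.27 (FDR 0.0356). The number of the 10 genes called was 4 to 7 in the alternatives, except 3 with replicates 1 and 2 averaged, also chosen after seeing the data, where 4 mice remain. Leaving out 1 mouse gave 4 to 5 called and 8 to 9 past the FDR, 14 to 16 genes of the lists called, and 5 to 7 ratios that did not overlap. Library totals raised the genes of the lists called from 14 to 36 (33 higher and 3 lower). Requiring 10 reads or more from each mouse left no value for Cdkn2a. Same-numbered mice did not deviate together (correlations of -0.201, -0.192 and -0.314, against a mean of 0.0970 for other pairs), so no pairing by number was seen. This check cannot exclude a pairing, because deviations from a mean of 3 mice are tied to each other and replicate 3 stood apart in both groups. With the replicate block, 5 of the 10 genes were called, 9 passed the FDR and 13 genes of the lists were called. Depth limits Cdkn2a alone among the 10 genes, with 1 to 4 reads in Ctrl mice.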
